A study of Mus musculus with 2 samples.

Results

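The genes that fold, modify, cut and cross-link collagen were followed in dermal fibroblasts of untreated and imiquimod-treated mouse skin. They were 10 genes taken by symbol from the 31053 genes in the count files, namely Serpinh1, Ppib, P4hb, P4ha1, Plod1, Pcolce, Adamts2, Lox, Loxl1 and Loxl2, and all 10 were detected in both libraries. They were read beside Col1a1 and Col3a1, which encode the chains of collagen I and collagen III, in the same cell barcodes. The cells came from C57BL/6 mice of genotype PdgfraDreER-tdTomato, 8 weeks old, in which tamoxifen switches on the red reporter tdTomato in cells that express Pdgfra at that time. Live dermal cells that were negative for the leukocyte antigen CD45 and positive for tdTomato were sorted, and cells that began to express Pdgfra after the labelling would not carry the reporter. The UT group was untreated, and the IMQ group had received imiquimod, a Toll-like receptor agonist that induces psoriasis-like skin inflammation, for 7 days. Since each group is a single library (n = 1), differences between mice could not be estimated, and the values below have no test. The 95% intervals given are exact and describe the error of counting UMIs or barcodes alone.

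Procollagen chains are hydroxylated and folded into a triple helix in the endoplasmic reticulum (ER) by a dedicated set of enzymes and chaperones. After secretion, proteases remove the ends of procollagen, and lysyl oxidases then cross-link the assembled fibrils, which gives the dermis its tensile strength. The supply of helpers is thus usually considered together with the supply of chains, and the comparison here asked whether both moved alike between UT and IMQ skin.

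The 3′ tag libraries gave counts of unique molecular identifiers (UMIs), 1 per captured transcript, which do not grow with transcript length. Barcodes with 200 to 5000 detected genes and at most 5% mitochondrial UMIs were kept, which left 1045 of 1415 barcodes in UT and 571 of 5047 in IMQ, with 1104798 and 460947 UMIs and medians of 741 and 659 UMIs per barcode. The IMQ matrix holds fewer barcodes in all than the number of filtered IMQ cells given in the methods of the study, so it may not be the matrix analysed there. The 1045 kept UT barcodes are also fewer than the filtered UT cells given there. Gm42418, a transcript annotated over ribosomal RNA, took 1.38% of kept UMIs in UT and 14.6% in IMQ, and mitochondrial genes took 2.44% and 2.42%. At least 1 UMI of 7 fibroblast markers was present in 97.5% of UT and 99.5% of IMQ barcodes, led by Dcn, whereas Pdgfra itself was at 44.4 and 39.1 CPM, which are UMIs scaled to a library total of 1000000. Markers of class II and myeloid cells summed to 1633 CPM in UT, of which 1 barcode held 85.6%, and to 202 CPM in IMQ, where Ptprc and Fcer1g were at 0. Keratinocyte markers summed to 1967 CPM in UT and 13.0 CPM in IMQ, where 6 of 8 were at 0. Endothelial and mural markers summed to at most 52.1 CPM in either library, with Rgs5 at 0 in both. The libraries shared 1 barcode sequence, which passed the filter in neither.

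Collagen transcripts were nearly 2-fold more abundant in IMQ, but the 10 helper genes as a set were not. Col1a1 stood at 25527 CPM in UT and 47112 CPM in IMQ, so that the log2 ratio was 0.88 (95% interval 0.86 to 0.91). Col3a1 stood at 10505 and 20675 CPM, a log2 ratio of 0.98 (0.94 to 1.02). The helpers summed to 5883 CPM in UT and 5081 CPM in IMQ, with a log2 ratio of -0.21 (-0.28 to -0.14), which became 0.27 under TMM scaling, 0.26 under median-of-ratios scaling and 0.05 with mitochondrial, ribosomal and Gm42418 UMIs left out of the totals. Per 1000 UMIs of Col1a1 and Col3a1 there were 163 helper UMIs in UT and 75.0 in IMQ, with a log2 ratio of -1.12 (-1.20 to -1.05) that no scaling of the libraries can alter. The median log2 CPM ratio of the 10 genes was -0.16, or 0.31 to 0.32 under median-of-ratios and TMM scaling, and the median over all 8129 genes with at least 10 UMIs was -0.61 (-0.14 under TMM). The median of the helpers therefore lay above that of all genes and below both collagens.

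No helper was 2-fold lower in IMQ on the CPM scale, against 34.2% of all genes, and none was 2-fold higher, against 4.03% of all genes. Per Col1a1 UMI, 6 of 10 were at least 2-fold lower, but so were 73.2% of all genes, so this count is not particular to collagen helpers. With up to 10% mitochondrial UMIs allowed (1301 UT and 1043 IMQ barcodes), no helper was 2-fold lower (34.7% of genes), Lox was 2-fold higher (3.78%), and 5 were at least 2-fold lower per Col1a1 UMI (74.6%). The collagen difference was smaller in barcodes with at least 500 genes, of which IMQ had 37 and UT 303. There the log2 ratio was 0.13 for Col1a1 and 0.21 for Col3a1, and the helper sum per collagen UMI had a log2 ratio of -0.83.

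**Figure D1:**
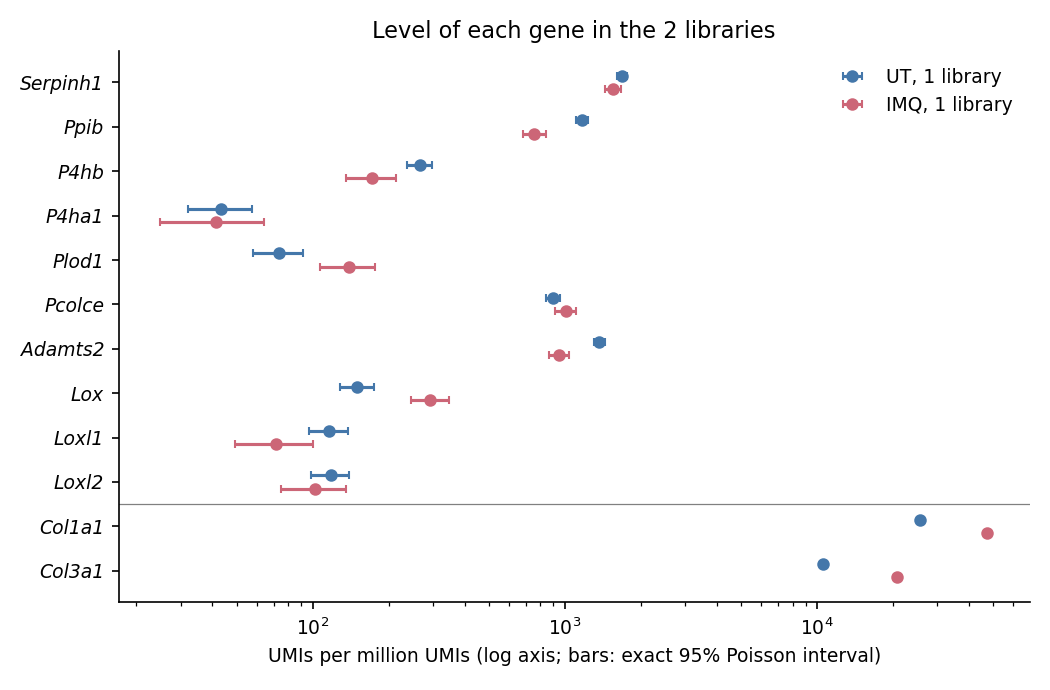
Level of each gene in CPM (log axis) in the UT library (blue) and the IMQ library (red), with exact 95% Poisson intervals. Col1a1 and Col3a1, below the line, lie to the right in IMQ, as do Lox and Plod1, whereas Ppib, P4hb, Adamts2 and Loxl1 lie to the left.

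Among the ER helpers, Serpinh1 was the most abundant, and its CPM interval for the ratio held 0. Serpinh1 encodes HSP47, a chaperone that binds the procollagen triple helix. It gave 1859 UMIs (1683 CPM) in UT against 715 UMIs (1551 CPM) in IMQ, and its log2 ratio was -0.12 (-0.24 to 0.01), which became 0.14 to 0.37 under the other scalings. The ratio was -0.35 over all deposited barcodes, -0.58 in barcodes with at least 500 genes and -1.33 in those with at least 10 Malat1 UMIs. Relative to Col1a1, Serpinh1 was at 65.9 UMIs per 1000 in UT and 32.9 in IMQ, 2.002-fold lower.

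Ppib and P4hb were lower in IMQ by similar amounts. Ppib encodes cyclophilin B, a prolyl isomerase that acts in helix folding and partners the prolyl 3-hydroxylase complex. Its level was 1169 CPM in UT (1291 UMIs) and 757 CPM in IMQ (349 UMIs), giving a log2 ratio of -0.63 (-0.80 to -0.45). P4hb encodes protein disulfide isomerase, which is also the beta subunit of collagen prolyl 4-hydroxylase. Its level was 266 CPM in UT (294 UMIs) and 171 CPM in IMQ (79 UMIs), giving a log2 ratio of -0.63 (-1.01 to -0.27). Both ratios were close to that of the median gene (-0.61), stayed below 0 in each of the 15 alternatives, and lay between -0.16 and -0.14 under TMM and median-of-ratios scaling. They were not alike in every subset, since P4hb was at -1.77 and Ppib at -0.57 in barcodes with at least 500 genes, and at -1.44 and -0.60 in those with at least 10 Malat1 UMIs. Per Col1a1 UMI, Ppib was 2.85-fold and P4hb 2.87-fold lower in IMQ.

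The hydroxylases proper were scarce. P4ha1, the catalytic alpha subunit that pairs with P4hb to hydroxylate prolines, was at 43.4 CPM in UT (48 UMIs) and 41.2 CPM in IMQ (19 UMIs), and its log2 ratio of -0.08 had an interval from -0.93 to 0.72, so no difference was detectable at this depth in the kept barcodes. Over all deposited barcodes the ratio of P4ha1 was -0.65 (-1.13 to -0.17), and in barcodes with at least 500 genes it was 0.53. The paralogue P4ha2 was at 116 and 154 CPM, a log2 ratio of 0.41 (-0.03 to 0.84). Plod1, a lysyl hydroxylase that prepares lysines for glycosylation and cross-linking, was higher in IMQ, like the collagens. It was at 73.3 CPM in UT (81 UMIs) and 139 CPM in IMQ (64 UMIs), giving a log2 ratio of 0.92 (0.43 to 1.41). Its level per 1000 Col1a1 UMIs was 2.87 in UT and 2.95 in IMQ. The paralogue Plod3 was at 50.7 CPM in UT and 34.7 CPM in IMQ, a log2 ratio of -0.55 (-1.45 to 0.28). The log2 CPM ratio of Plod1 was above 0 in 14 of 15 alternatives, the exception being -0.44 in barcodes with at least 10 Malat1 UMIs, of which IMQ had 6.

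The sequences upstream of 4 of these ER helpers are shown to set P4hb and Ppib beside Serpinh1 and Plod1. They are the 250 bases before the gene start in the RefSeq promoter table (GRCm38.p6), which held windows for 7 of the 10 genes, written 5′ to 3′ on the strand of the gene. Capitals mark CCAAT, the letters read by the factor NF-Y, GGGCGG, the GC box of the Sp family, and TATAAA, each on either strand. P4hb lies at chr11:120573254-120573503 (minus strand), Ppib at chr9:66059919-66060168 (plus), Serpinh1 at chr7:99353240-99353489 (minus) and Plod1 at chr4:147936777-147937026 (minus).
P4hb: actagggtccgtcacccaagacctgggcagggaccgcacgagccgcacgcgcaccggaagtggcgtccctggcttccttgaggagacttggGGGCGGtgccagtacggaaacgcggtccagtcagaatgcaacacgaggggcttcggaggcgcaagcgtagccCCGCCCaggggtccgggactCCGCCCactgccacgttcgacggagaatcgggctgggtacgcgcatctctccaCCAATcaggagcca
Ppib: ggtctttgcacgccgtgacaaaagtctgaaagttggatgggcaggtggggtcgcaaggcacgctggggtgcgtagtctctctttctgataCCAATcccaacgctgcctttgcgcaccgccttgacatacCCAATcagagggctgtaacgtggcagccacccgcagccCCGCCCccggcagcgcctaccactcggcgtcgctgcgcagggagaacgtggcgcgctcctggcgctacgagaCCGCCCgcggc
Serpinh1: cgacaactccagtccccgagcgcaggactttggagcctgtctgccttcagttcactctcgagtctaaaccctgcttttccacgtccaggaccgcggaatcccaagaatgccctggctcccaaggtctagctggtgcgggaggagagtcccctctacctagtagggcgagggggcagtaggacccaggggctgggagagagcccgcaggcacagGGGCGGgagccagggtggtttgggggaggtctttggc
Plod1: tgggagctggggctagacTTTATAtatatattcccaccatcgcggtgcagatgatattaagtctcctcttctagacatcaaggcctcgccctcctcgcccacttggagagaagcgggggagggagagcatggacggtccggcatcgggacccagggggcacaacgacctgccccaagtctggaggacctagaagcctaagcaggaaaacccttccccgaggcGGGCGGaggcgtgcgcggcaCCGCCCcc
CCAAT occurred once in P4hb and at 2 places in Ppib, and in no other of the 7 windows, while 37.4% of all 32851 windows of 300 bases held it. GGGCGG occurred in all 7 windows, against 35.7% of all windows, and TATAAA occurred in P4ha1 and Plod1, against 13.6%. Adamts2 had a log2 ratio whose interval overlapped those of P4hb and Ppib, and its window held no CCAAT. Whether the letters go with the ratio across genes was not tested. These are matches of letters and not binding sites.

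Of the genes for propeptide removal, Pcolce and Adamts2 had ratios whose intervals did not overlap. Pcolce encodes a secreted glycoprotein that enhances removal of the C-terminal propeptide by BMP1. It was at 896 CPM in UT (990 UMIs) and 1007 CPM in IMQ (464 UMIs), giving a log2 ratio of 0.17 (0.01 to 0.33) that was 0.43 to 0.65 under the other scalings. Its interval held 0 at 10% mitochondrial UMIs (0.08, -0.05 to 0.20), and the ratio turned to -0.74 in barcodes with at least 500 genes and -1.39 in those with at least 10 Malat1 UMIs. Adamts2 encodes the protease that removes the N-terminal propeptide. It was at 1369 CPM in UT (1512 UMIs) and 948 CPM in IMQ (437 UMIs), giving a log2 ratio of -0.53 (-0.69 to -0.38), or -0.05 under TMM scaling and -1.65 in barcodes with at least 500 genes. Per Col1a1 UMI, Pcolce was 1.64-fold and Adamts2 2.66-fold lower. Bmp1, the protease that Pcolce assists, was at 148 and 124 CPM (log2 ratio -0.25, -0.72 to 0.19), and Pcolce2 at 1160 and 1178 CPM (0.02, -0.13 to 0.17).

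The 3 lysyl oxidases had unlike ratios. Lox, the oxidase that starts covalent cross-linking of collagen and elastin, was at 150 CPM in UT (166 UMIs) and 293 CPM in IMQ (135 UMIs), giving a log2 ratio of 0.96 (0.62 to 1.30). Its level per 1000 Col1a1 UMIs was 5.89 in UT and 6.22 in IMQ, and the interval of this log2 ratio (0.08, -0.26 to 0.42) held 0. The ratio per Col1a1 UMI stayed within that interval in 13 of 15 alternatives, but the changes of scaling among them could not alter it. This ratio was 1.23 in barcodes with at least 500 genes and 1.46 in those with at least 10 Malat1 UMIs. The barcode with most Lox UMIs held 8.15% of them in IMQ, and the log2 CPM ratio was 0.91 without the top barcodes and at least 0.87 in every alternative. Loxl1, which acts mainly on elastic fibres, was at 116 CPM in UT (128 UMIs) and 71.6 CPM in IMQ (33 UMIs), giving a log2 ratio of -0.69 (-1.29 to -0.13), which was -0.21 under TMM scaling, -0.22 under median of ratios and -0.01 in barcodes with at least 500 genes. Loxl2, which also cross-links collagen IV, was at 118 CPM in UT (130 UMIs) and 102 CPM in IMQ (47 UMIs), giving a log2 ratio of -0.21 (-0.72 to 0.28) that was 0.05 to 0.28 under the other scalings. The ratio of Loxl2 left this interval in thinned barcodes (0.38) and in barcodes with at least 500 genes (-1.39). Per Col1a1 UMI, Loxl1 was 2.99-fold and Loxl2 2.13-fold lower in IMQ, but in barcodes with at least 500 genes the log2 ratio of Loxl1 per Col1a1 UMI was -0.15. The intervals of Lox and Loxl1, and of Lox and Loxl2, did not overlap on either scale. As a share of all helper UMIs, Lox made up 2.55% in UT (2.18 to 2.97) and 5.76% in IMQ (4.85 to 6.79).

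**Figure D2:**
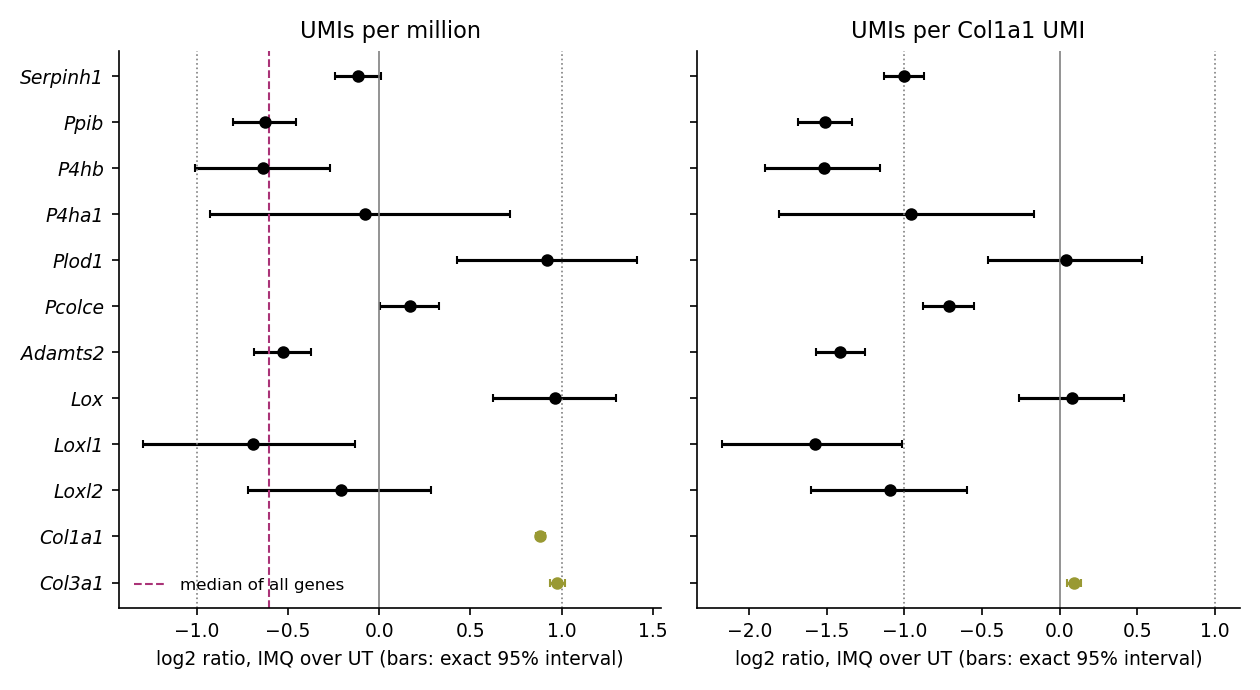
Log2 ratio of IMQ over UT for each gene, in CPM (left) and in UMIs per Col1a1 UMI (right), with exact 95% intervals, and dotted lines at a 2-fold ratio. Lox and Plod1 lie with Col3a1 near 1 on the left and near 0 on the right, and the other 8 helpers lie below 0 on the right. Most genes would lie there too, since 95.5% of all genes had a lower CPM ratio than Col1a1 (1 CPM added).

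Against Col3a1, 7 of 10 were at least 2-fold lower, as were 76.3% of all genes. Lox and Plod1 were the helpers whose interval relative to Col1a1 held 0, and with up to 10% mitochondrial UMIs that of Lox lay above 0 (log2 ratio 0.31, 0.03 to 0.58). On the CPM scale the interval lay above 0 for Lox, Plod1 and Pcolce, 3 of 10 against 4.11% of all genes, and below 0 for Loxl1, Ppib, P4hb and Adamts2, 4 of 10 against 28.1%. Genes with few UMIs have wide intervals, so both shares over all genes depend on abundance. Under TMM scaling the interval lay below 0 for none and above 0 for 4, with Serpinh1 added, and at 10% mitochondrial UMIs above 0 for 2. The share of all genes was not taken for these settings, so their counts have no comparison. The 3 most abundant helpers, Serpinh1, Adamts2 and Ppib in UT and Serpinh1, Pcolce and Adamts2 in IMQ, made up 71.7% and 69.0% of helper UMIs, so the summed values describe mainly these.

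At equal depth the share of barcodes with a UMI was higher in IMQ without overlap of the intervals for 3 of the 10 genes, against 1.08% of all genes, and lower for 2, against 6.67%. Rare genes have wide intervals, so these shares over all genes depend on abundance. Each barcode was thinned at random to 400 UMIs, which left out 73 UT and 33 IMQ barcodes below that depth. The 400 include Gm42418, whose larger share in IMQ left fewer UMIs for other genes there. Lox was seen in 5.35% of thinned UT barcodes (4.02 to 6.96) and 10.97% of thinned IMQ barcodes (8.45 to 13.9), and in 11.2% and 17.0% before thinning. Plod1 was seen in 2.67% (1.75 to 3.89) and 6.13% (4.26 to 8.51), and in 6.32% and 10.5% before thinning. Pcolce was seen in 26.7% (24.0 to 29.7) and 36.2% (32.2 to 40.5) of thinned barcodes, but in 47.8% and 48.0% of the unthinned ones. Ppib was the clearest in the other direction, at 35.4% (32.4 to 38.5) in UT and 24.0% (20.4 to 27.8) in IMQ, and at 57.5% and 40.6% before thinning. Adamts2 was at 36.3% and 29.2% of thinned barcodes and at 53.4% and 43.4% of unthinned ones. The intervals of the other 5 overlapped between libraries after thinning, and Serpinh1 was seen in most of the barcodes before it (60.8% in UT, 61.5% in IMQ). A background share from a cell type that lacks these genes could not be set, since only 2 UT barcodes and 1 IMQ barcode had at least 10 UMIs of class II genes. With a median of 3595 UMIs, those 2 UT barcodes held 6 UMIs of Ppib, 1 of P4hb and none of the other 8.

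**Figure D3:**
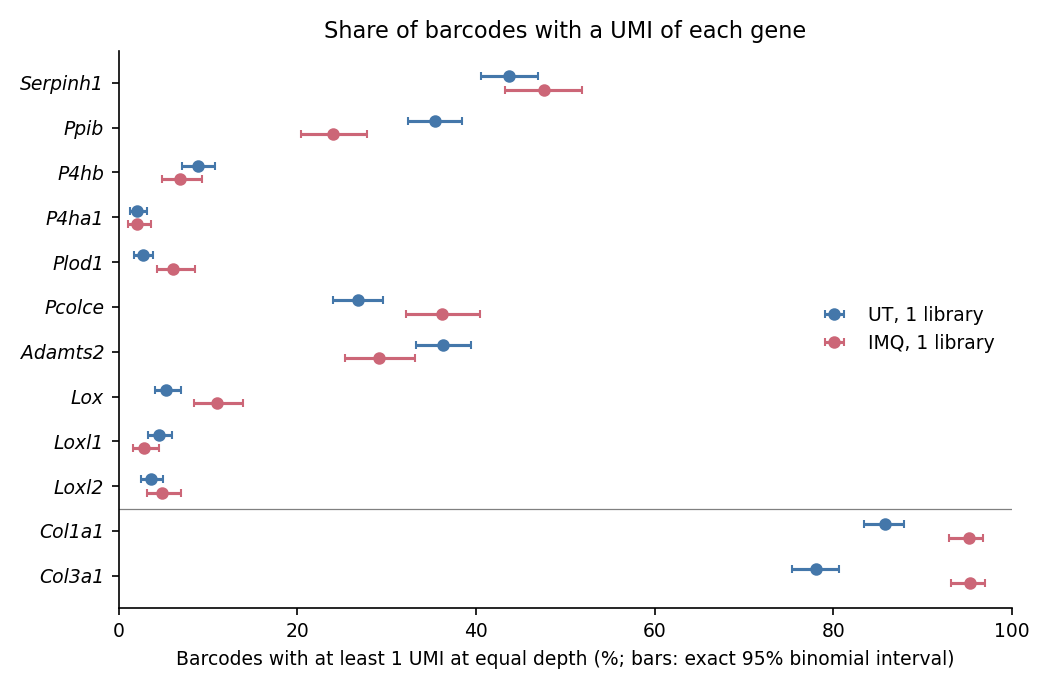
Share of barcodes with at least 1 UMI of each gene after thinning every barcode to 400 UMIs, with exact 95% binomial intervals, in UT (blue, 972 barcodes) and IMQ (red, 538 barcodes). Lox, Plod1 and Pcolce lie to the right in IMQ without overlap, and Ppib and Adamts2 to the left.

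The number of different helpers seen per barcode thinned to 400 UMIs, Gm42418 included, was alike in both libraries. It averaged 1.69 of 10 in UT and 1.71 in IMQ, with a median of 2 in each. None was seen in 17.5% of barcodes in UT (15.15 to 20.03) and 17.5% in IMQ (14.4 to 21.0), and 3 or more in 24.2% (21.5 to 27.0) and 25.3% (21.7 to 29.2). Helper UMIs averaged 2.36 and 2.20 per thinned barcode. The same barcodes carried a median of 9 UMIs of Col1a1 and Col3a1 in UT and 24.5 in IMQ.

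The wider pathway was read from lists of known genes. Of 27 other genes of collagen biosynthesis, 18 had at least 10 UMIs, with a median log2 CPM ratio of 0.05, and 11 were above 0 and 7 below. All 18 lay above the median gene, as did 7 of the 10 helpers. With up to 10% mitochondrial UMIs allowed, 15 of 18 listed genes and 8 of the 10 helpers did. There the list median was -0.02, and 1 of the 18 was at least 2-fold lower, against 34.7% of all genes. At the 5% limit only Sparc, a collagen-binding glycoprotein, was past 2-fold, at 19547 CPM in UT and 42224 CPM in IMQ (log2 ratio 1.11, 1.08 to 1.14). Mia3, a cargo receptor for export of procollagen from the ER, was at 41.6 and 78.1 CPM (0.91, 0.24 to 1.57). Crtap, of the prolyl 3-hydroxylase complex that also holds cyclophilin B, was at 115 and 75.9 CPM (-0.60, -1.18 to -0.05). Plod2 and Loxl3, paralogues named after their values were seen, gave 2 and 3 UMIs in UT and 0 in IMQ, where 3 UMIs would be 6.51 CPM. Of 6 fibrillar collagen chains, 5 were higher in IMQ, and Col5a3 was the exception, with 62 UMIs in UT and 3 in IMQ (-3.11, -5.42 to -1.49).

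General ER folding genes, which serve all secreted proteins, had a lower median ratio than the collagen helpers, although the 2 lists overlapped. Their median log2 CPM ratio was -1.09 over 16 genes, 0.48 below the median gene, while the collagen helpers lay 0.44 above it. On the CPM scale 9 of the 16 were at least 2-fold lower, against 34.2% of all genes and none of the 10 helpers. The 4 of the 16 above the median gene were Ppic, Selenof (-0.55), Dnajc3 (-0.52) and Dnajb11 (-0.48). The helpers Ppib, P4hb and Loxl1 had lower ratios than these. The chaperone Hsp90b1 was at 534 CPM in UT and 171 CPM in IMQ (log2 ratio -1.64, -2.00 to -1.30), and the lectin chaperone Calr at 584 and 245 CPM (-1.25, -1.55 to -0.96). Hspa5, which encodes BiP, was at 453 and 256 CPM (-0.82, -1.13 to -0.53), and the disulfide isomerase Pdia4 at 112 and 41.2 CPM (-1.45, -2.23 to -0.74). The interval of P4hb, itself a disulfide isomerase, overlapped those of Pdia3 (-1.07, -1.39 to -0.76), Pdia4 and Pdia6 (-1.23, -1.68 to -0.80). The 1 gene above 0 was Ppic, a cyclophilin related to Ppib, at 749 and 1241 CPM (0.73, 0.57 to 0.88), so the pair of cyclophilins lay on opposite sides of 0.

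**Figure D4:**
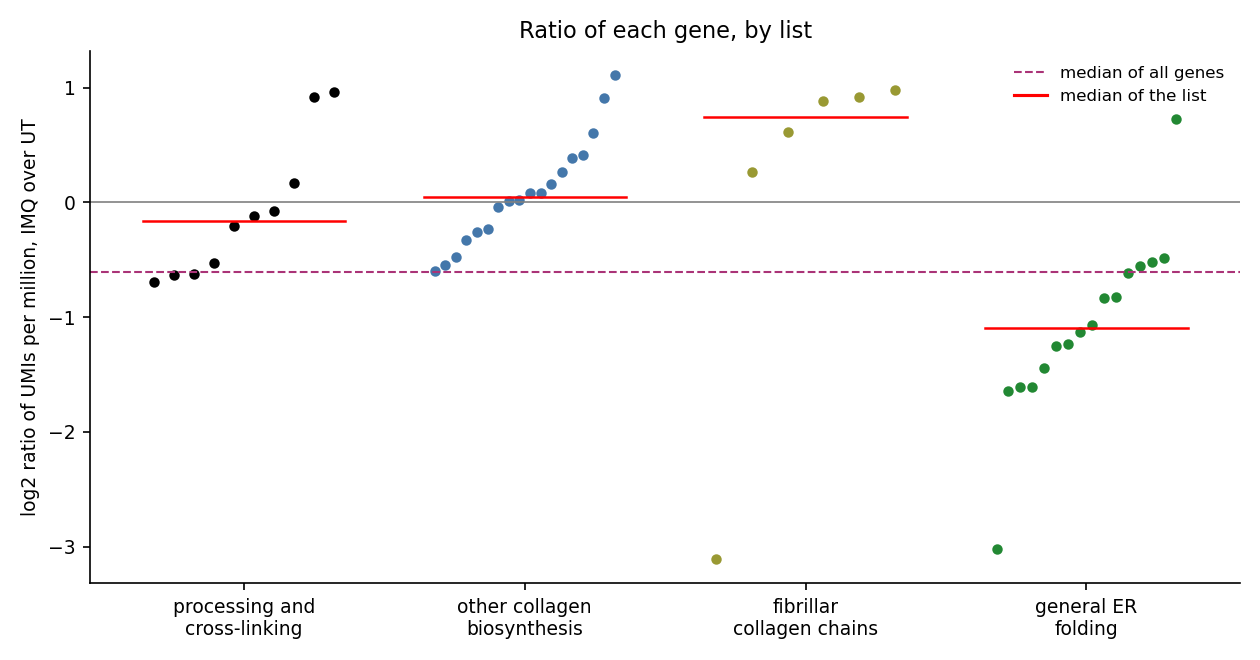
Log2 ratio of CPM, IMQ over UT, for each gene with at least 10 UMIs in 4 lists, with the median of each list (red line, 1 CPM added) and of all genes (dashed). The list medians run from -1.09 for general ER folding to -0.16 for the processing and cross-linking genes, 0.05 for other collagen biosynthesis and 0.75 for the fibrillar chains.

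Folding genes of the ER carry an element known to answer ER stress, in which CCAAT and CCACG are separated by 9 bases. It occurred on either strand in 7 of 13 general ER folding genes with a window, in 0 of the 7 helpers, in 0 of 18 other collagen biosynthesis genes and in 0.119% of all windows. The last value is a share of windows, while the others count genes with the element in any window. The element is known from such folding genes, so its count among them was foreseeable. Its bearing on the ratios was not tested. CCAAT alone, which the element contains, was in 13 of 13 of the general ER folding genes. The sites are shown for comparison with the promoters of P4hb and Ppib above, written in the direction of the element with its 2 parts in capitals, from Hspa5 at chr2:34772025-34772043 (plus strand), Pdia6 at chr12:17266491-17266509 (plus), Hsp90b1 at chr10:86705533-86705551 (plus) and Calr at chr8:84847075-84847093 (plus).
Hspa5: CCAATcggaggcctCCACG
Pdia6: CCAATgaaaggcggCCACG
Hsp90b1: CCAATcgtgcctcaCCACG
Calr: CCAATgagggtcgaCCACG

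Within each library, some helpers were higher in collagen-rich barcodes, with an interval above 0 for 6 of 10 in UT, against 9.25% of genes with at least 10 thinned UMIs there, and for 4 of 10 in IMQ, against 7.17%. Here too, genes with few UMIs have wide intervals, so both shares depend on abundance. Thinned barcodes were split at the library's median of Col1a1 plus Col3a1 UMIs, and CPM was taken without collagen UMIs. In UT, Serpinh1 was at 2864 CPM in the 459 collagen-rich and 861 CPM in the 513 collagen-poor barcodes, a log2 ratio of 1.73 (1.48 to 1.99). In IMQ the values were 2319 CPM and 1399 CPM in 269 barcodes each, a log2 ratio of 0.73 (0.42 to 1.04), an interval that did not overlap that of UT. Adamts2 had log2 ratios of 1.56 (1.28 to 1.84) and 1.06 (0.65 to 1.49), Pcolce of 1.19 (0.86 to 1.54) and 0.56 (0.19 to 0.93), and Lox of 1.06 (0.25 to 1.90) and 1.59 (0.76 to 2.48). Ppib hardly followed collagen, at 0.25 (-0.02 to 0.51) in UT and -0.09 (-0.56 to 0.37) in IMQ. Over all 10 genes the log2 ratio was 1.15 (1.02 to 1.27) in UT and 0.63 (0.46 to 0.80) in IMQ. The split was made in each library on its own median, 9 collagen UMIs in UT and 24.5 in IMQ, so collagen-poor barcodes of IMQ were not poor by the UT scale.

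**Figure D5:**
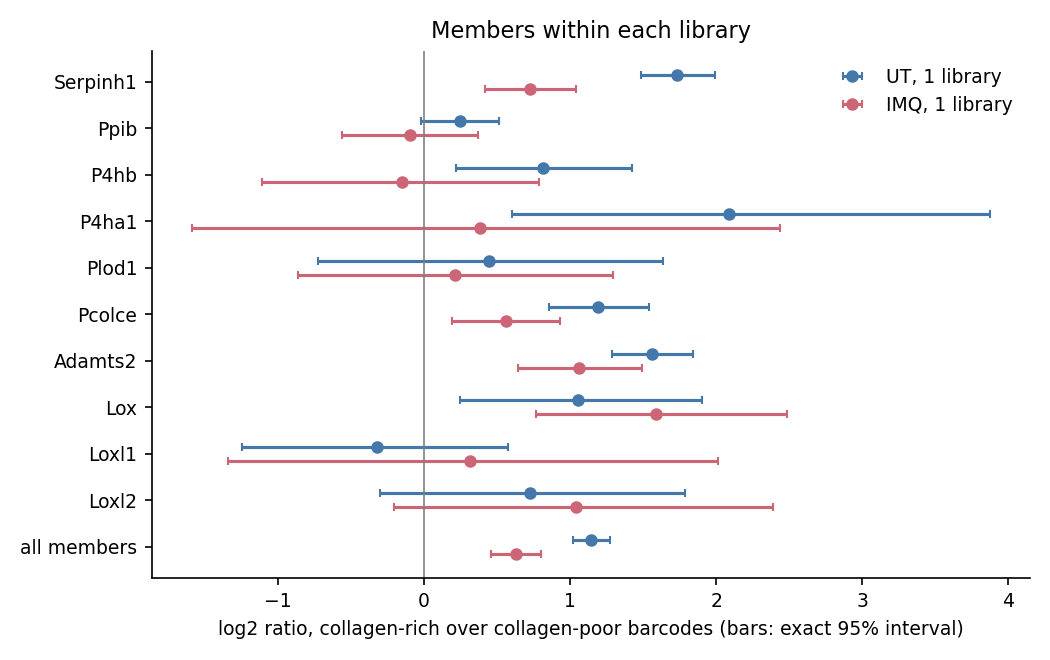
Log2 ratio of each gene between barcodes above and at or below the library's median collagen UMIs, in UT (blue) and IMQ (red), with exact 95% intervals. Serpinh1, Pcolce, Adamts2 and Lox lie above 0 in both libraries, and the sum of all 10 genes lies higher in UT than in IMQ.

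Barcodes with a UMI of Cthrc1, a gene of activated fibroblasts, numbered 81 in IMQ and 3 in UT. Without the IMQ ones, the IMQ to UT log2 ratios were 0.91 for Lox, 0.79 for Plod1, 0.81 for Col1a1 and 0.89 for Col3a1, near the values with them. Loxl1 was at 150 CPM (10 UMIs) in the Cthrc1-positive IMQ barcodes and 58.3 CPM (23 UMIs) in the others, and P4ha1 had 0 UMIs in the former.

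Barcodes that the filter left out also held fewer helper UMIs per collagen UMI in IMQ than in UT. Per 1000 collagen UMIs, helpers gave 153 UMIs in UT and 75.3 in IMQ among barcodes with 5% to 10% mitochondrial UMIs, and 129 and 58.3 among barcodes with fewer than 200 genes. Above 10% mitochondrial UMIs the values were 100.2 in the 48 UT barcodes and 81.2 in the 382 IMQ barcodes. The 3621 IMQ barcodes with fewer than 200 genes still held Col1a1 at 44450 CPM, near the 47112 CPM of the kept ones, and Serpinh1 at 884 CPM against 1551 CPM. How much of the collagen signal of kept barcodes was free RNA was not tested. Without the barcodes that held 3 or more UMIs of another cell type's markers (1025 UT and 562 IMQ left), the helper sum per collagen UMI had a log2 ratio of -1.11. CPM is a share of the total, so a larger Gm42418 share leaves less for every other gene, whereas ratios to Col1a1 are not touched by it.

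In the GENCODE M21 annotation of GRCm38, the genes lie at chr7:99345376-99353239 (Serpinh1), chr9:66060222-66066623 (Ppib), chr11:120560298-120573253 (P4hb), chr10:59323296-59373304 (P4ha1), chr4:147909753-147936767 (Plod1), chr5:137605103-137613784 (Pcolce), chr11:50602084-50807573 (Adamts2), chr9:58287738-58313186 (Loxl1) and chr14:69609068-69695834 (Loxl2), and Lox on chromosome 18. Pcolce overlaps Fbxo24 on its own strand, which gave 2 UMIs in UT and 0 in IMQ, and Ppib overlaps Snx22 on the other strand, which gave 0 in both.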

How the data were processed

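Dermal tdTomato-positive, CD45-negative cells were profiled with the Chromium 3′ kit, version 3, in 1 UT and 1 IMQ library. The authors deposited UMI counts per gene and barcode without normalisation, from Cell Ranger 3.0.0 (UT) and 3.1.0 (IMQ) per the file headers, on build mm10 per the submitters' processing notes. The genes and lists were chosen with earlier results of these data known. Genes of other lists are named only if they had at least 30 UMIs over both libraries, with Plod2 and Loxl3 as exceptions chosen after their values were seen. Not every gene that passed this limit is named, so the named ones are a selection.

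The cell filter of the study was applied to the counts, and doublets were removed only as an alternative (Scrublet in scanpy 1.11.5). UMIs were summed per library and divided by the library total (CPM). Sums have exact Poisson intervals, shares exact binomial (Clopper-Pearson) intervals and ratios exact conditional intervals (95%, scipy 1.17.1). The ratio code was tested on simulated data. List medians used genes with at least 10 UMIs and 1 CPM added. Motif letters were searched on both strands in RefSeq windows of 300 bases. With 1 library per group no p-value was computed. The 15 alternatives covered filters, scaling (TMM from edgeR 4.0.16), weighting, thinning and barcode subsets. Dropping the minimum of UMIs or the shared barcode could not change any helper value. All 10 helpers passed that minimum, and the shared barcode was kept in neither library.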

Additional observations from a re-analysis of the deposited data

How the results depend on the processing

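No paired analysis was possible because each group has 1 library. Of 15 alternatives, 12 left the summed helpers per collagen UMI within the interval of its log2 ratio. Those 12 include the changes of scaling, the dropped minimum of UMIs and the removal of shared barcodes, which could not move this value. The alternatives outside the interval gave -1.24 (all deposited barcodes), -0.83 (at least 500 genes) and -0.71 (at least 10 Malat1 UMIs, with 33 UT and 6 IMQ barcodes). Those last 2 sets also gave 3 and 4 genes at least 2-fold lower, and the 500-gene set 3 genes at least 2-fold lower per Col1a1 UMI. The summed helpers had log2 ratios of 0.27 under TMM scaling, 0.26 under median of ratios, 0.048 with totals reduced by the UMIs of mitochondrial genes, ribosomal proteins, Gm42418 and AY036118, -0.34 over all barcodes, -0.68 at 500 genes, -0.12 with equal weight per barcode, -0.10 when thinned and -0.72 in Malat1-rich barcodes. The median over helpers was 0.32, 0.31 and -0.88 under TMM, median of ratios and in Malat1-rich barcodes. The number of genes at least 2-fold higher was 2 under TMM, median of ratios and reduced totals. It was 1 at 10% mitochondrial UMIs, at 500 genes, with equal weight, when thinned and in Malat1-rich barcodes. The share of all genes past 2-fold was taken at 10% mitochondrial UMIs but in none of the other settings named here. Their counts of genes at least 2-fold higher or lower therefore have no comparison.

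For Col1a1 and Col3a1 the log2 ratios were 0.86 and 0.93 at 10% mitochondrial UMIs, 0.13 and 0.21 at 500 genes, 1.37 and 1.46 under TMM, 1.36 and 1.45 under median of ratios, 1.14 and 1.24 with reduced totals, 0.99 and 1.05 with equal weight, 1.03 and 1.06 when thinned, 0.82 and 0.90 without other cell types, 0.80 and 0.89 with a Dcn UMI, and 0.26 and -0.95 in Malat1-rich barcodes. Over all barcodes Col3a1 was at 0.88. Why these values moved was not tested. Loxl2 had no UMI in the 6 Malat1-rich IMQ barcodes and has no value there. Counting error limits P4ha1 most, with 19 UMIs in IMQ, and differences between mice could not be measured.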
